A study of Mus musculus with 18 samples.

Results

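Pcdh19 knockout neurospheres were compared between day 4 and day 0 of differentiation, using the 3 arrays whose titles name differentiated knockout neurospheres and the 3 whose titles name undifferentiated knockout neurospheres, which made 6 of the 18 arrays of the series. Neurospheres are balls of neural stem cells and progenitors grown in suspension, and differentiation turns them into a mixture of glia and neurons. The other arrays held wild type and mosaic cultures (knockout and wild type cells mixed), 3 arrays at day 4 and 3 at day 0 for each, and they enter here through the common model, in which all 18 arrays set the spread behind each test, and through the tests of where the knockout differed. Total mouse RNA, labelled with biotin, was read on 1 Affymetrix gene array per sample. The design text describes the replicates as technical, so p-values measure the spread between these samples and no wider variation. The culture protocol is given only as a citation, and the sources used here name no knockout allele, donor age or number of lines.

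Pcdh19 encodes a protocadherin, a cell surface protein of calcium-dependent adhesion, and lies on the X chromosome. Progenitors in such cultures keep dividing under mitogens and carry active Notch signalling. On differentiation they leave the cell cycle and form astrocytes, neurons and oligodendrocytes, the cells that wrap axons in myelin. Oligodendrocytes pass from precursors through a short premyelinating stage to cells that make myelin proteins and lipids.

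Values are log2 signals, and a log2 change of 1 is a change of 2-fold. Pearson's r over all 22180 genes was 0.991 to 0.992 between knockout arrays of the same day and 0.971 to 0.975 between days. In a principal component analysis of the 6 arrays over the 19016 genes tested, the first component held 69.9% of the variance and the second 9.91%. All samples are labelled female, and the arrays went against that label. On the knockout arrays the Y-linked genes Kdm5d, Uty and Eif2s3y measured 6.96 to 8.77 at day 4, against 7.68 to 9.04 at day 0, and lay between the 70.5th and 93.5th percentile of their array. Xist, which is transcribed from the inactive X chromosome of female cells, measured 3.33 to 3.98 at day 4, against 3.47 to 3.62 at day 0, and lay at or below the 22.5th percentile. The wild type and mosaic arrays showed the same pattern, so the sex of the cells cannot be taken from the label.

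Pcdh19 itself was low and did not pass the test over the 4 days. It measured 5.70, 5.53 and 5.86 on the knockout day 4 arrays, against 5.39, 5.46 and 5.68 on the knockout day 0 arrays. The groups overlapped, and the log2 fold change was 0.19 ± 0.26 (SE, n = 3 each) with an adjusted p of 0.674 in limma. Every knockout value lay below every wild type value, which ran from 6.81 to 6.98 at day 4 and from 6.66 to 6.85 at day 0. The probe set still gave a signal near the 50th percentile of the knockout arrays, and whether that signal came from remaining transcript or from background was not tested.

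Over the 4 days 5211 genes changed, which is 27.4% of the 19016 tested (limma's moderated test, Benjamini-Hochberg adjusted p under 0.05). Of these, 2846 rose, or 15% of the genes tested, and 2365 fell, or 12.4%. The 3 day 4 arrays did not overlap the 3 day 0 arrays for 5046 of the 5211. The calls were made on these same arrays, so that count is no separate support for them, and the share over all genes was not counted. Fitted on the 6 knockout arrays alone, 4170 genes changed. The median log2 fold change over all genes was 0.02. Changes of large size were more often downward, with 322 genes up and 469 down at least 2-fold, 50 up and 124 down at least 4-fold, and 9 up and 19 down at least 8-fold. The plot of change against level shows these at mid signal, with the myelin genes Mag and Mobp at the top and Fos and Egr1 at the bottom. In a bulk sample, fewer cells of a type cannot be told apart from less RNA per cell.

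**Figure D1:**
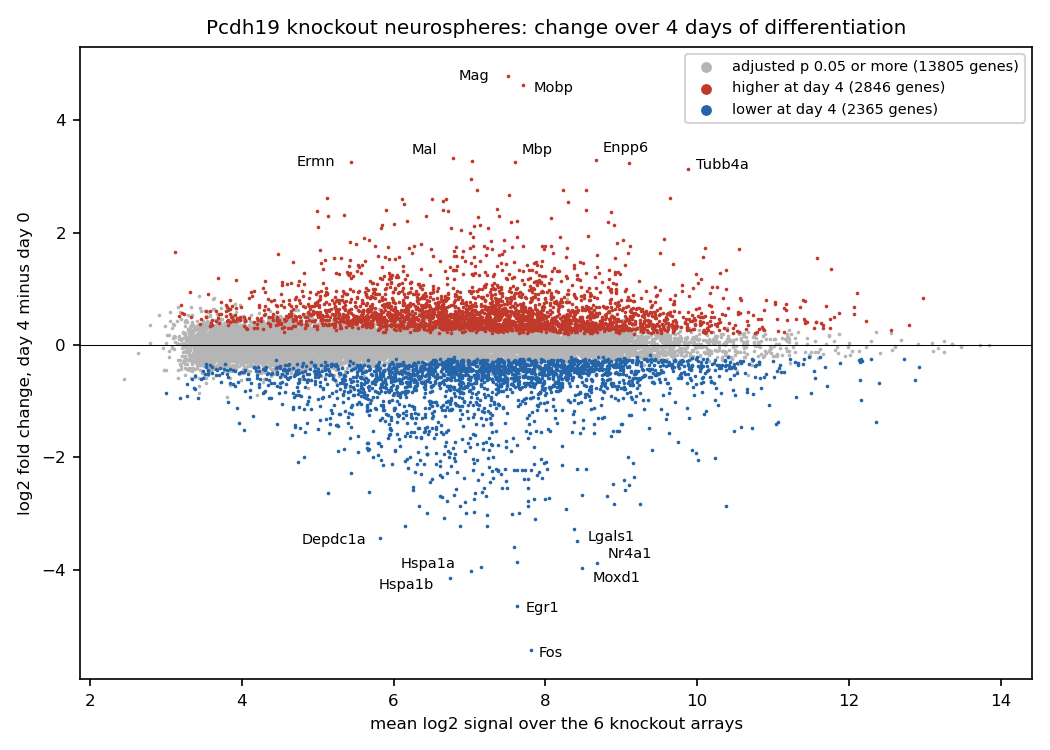
Log2 fold change of each gene in knockout cultures, day 4 minus day 0 (vertical axis), against its mean log2 signal over the 6 knockout arrays (horizontal axis). Each point is 1 gene, coloured by its call at an adjusted p under 0.05, and the downward side reaches further (Fos, -5.43) than the upward side (Mag, 4.79).

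The genes that rose most were those of myelin. Of 22 genes for myelin proteins, 17 rose, 1 fell and 4 did not pass, with a median log2 fold change of 1.14 beside 0.02 over all genes. All lists were chosen with earlier results of these data known, so a list's distance from all genes is no separate support. Each list count below stands beside 15% of all genes that rose and 12.4% that fell. The share called ran from 5.62% of the dimmest 4754 genes to 45.8% of the brightest 4754, and lists were not matched for level. Mag, an adhesion receptor on the inner face of the myelin sheath, measured 9.73, 9.61 and 10.38 at day 4, against 4.57, 5.06 and 5.72 at day 0. It changed by 4.79 ± 0.35 (27.6-fold, adjusted p = 4.05e-08), and the arrays of the days lay about 4 log2 units apart at their closest. Mobp, a small basic protein of compact myelin, measured 9.92, 9.72 and 10.42 at day 4, against 5.70, 5.12 and 5.38 at day 0 (4.62 ± 0.23, adjusted p = 7.52e-10). Mbp, which holds the inner membrane faces of myelin together, measured 9.18, 9.11 and 9.39 at day 4, against 5.72, 5.81 and 6.41 at day 0 (3.25 ± 0.18, adjusted p = 1.90e-09). For both Mobp and Mbp every day 4 array lay above every day 0 array. Mag, Mobp and Mbp were picked for naming from genes whose days did not overlap, so that separation is no separate support for their change.

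Mal, a proteolipid of myelin membranes, rose by 3.33 ± 0.21, Ermn, a cytoskeletal protein of late oligodendrocytes, by 3.26 ± 0.34, and Cldn11, which forms the tight junctions of the sheath, by 3.24 ± 0.23. Ermn was the dimmest of them, at 7.26, 6.69 and 7.24 on day 4, against 3.50, 4.08 and 3.84 on day 0. Mog, a protein of the outer surface of myelin, rose by 2.60 ± 0.35 and stayed at moderate signal, 7.27, 7.10 and 7.87 at day 4, against 5.03, 4.51 and 4.89 at day 0. The only member that fell was Plekhb1, at 9.89 to 10.12 on day 4, against 10.49 to 10.60 on day 0 (-0.55 ± 0.11, adjusted p = 0.000821). Gjb1 and Pmp22, better known from peripheral myelin, changed by 0.25 and 0.26 and did not pass, nor did Hapln2 (0.35) and Ppp1r14a (0.10).

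Enzymes that build myelin lipids moved the same way. Of 15, 12 rose, 2 fell and 1 did not pass (median 0.71). Ugt8a, which makes galactosylceramide, measured 10.94, 10.87 and 11.04 at day 4, against 8.21, 8.06 and 8.75 at day 0 (2.62 ± 0.17, adjusted p = 1.36e-08). Fa2h, which adds the 2-hydroxyl group to myelin fatty acids, rose by 2.66 ± 0.22, and the sulfatide enzyme Gal3st1 by 1.57 ± 0.18. The glycolipid transfer protein gene Gltp rose by 1.64 ± 0.14, and Elovl7, an enzyme that lengthens fatty acids, by 2.08 ± 0.17. Acot1, an acyl-CoA thioesterase, fell by 1.03 on the log2 scale, with values of 8.06, 7.73 and 7.96 at day 4, against 8.88, 8.83 and 9.15 at day 0.

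Among 17 transcription factors of the lineage, 11 rose, none fell and 6 did not pass (median 0.46), while 1 fell without day 4 array 1. Myrf, the factor that switches on myelin genes, measured 9.32, 9.60 and 9.79 at day 4, against 6.91, 6.45 and 7.74 at day 0 (2.54 ± 0.25, adjusted p = 9.28e-07). St18, Zfp488 and Nkx6-2 rose by 1.62 ± 0.18, 1.31 ± 0.13 and 1.24 ± 0.15. Sox10, which is needed throughout the lineage, rose by 0.85 ± 0.20 (adjusted p = 0.00357), with 7.88, 8.33 and 8.25 at day 4, against 7.23, 7.06 and 7.61 at day 0. Sox8 (0.16), Sox17 (-0.06), Nkx6-1 (0.02), Zfp24 (-0.25), Myt1 (-0.11) and Nfix (-0.02) did not pass.

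Genes of precursors and premyelinating cells were also higher at day 4. Of 21, 16 rose, 1 fell and 4 did not pass (median 0.51). Enpp6, a choline phosphodiesterase that marks newly forming oligodendrocytes, measured 10.25, 10.40 and 10.30 at day 4, against 6.59, 6.33 and 8.15 at day 0 (3.29 ± 0.35, adjusted p = 2.32e-06). Gpr17, a receptor of the premyelinating stage, measured 10.64, 11.05 and 10.90 at day 4, against 9.23, 8.79 and 9.88 at day 0 (1.57 ± 0.21). Bcas1 rose by 1.46 ± 0.20, the matrix protein gene Tnr by 1.33 ± 0.21, and C1ql1 by 1.62 ± 0.21. The precursor proteoglycan gene Cspg4 went the other way, at 6.56, 6.76 and 6.54 on day 4, against 6.97, 7.19 and 6.87 on day 0 (-0.39 ± 0.13, adjusted p = 0.0331), and its call was lost without day 4 array 1, day 4 array 3, day 0 array 1 or day 0 array 2 (-0.46 to -0.30 over the arrays left out, adjusted p up to 0.15). Vcan (-0.07), Ptprz1 (0.18), Matn4 (0.17) and Kcnj10 (0.12) did not pass.

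The day 0 arrays were not alike for this lineage. Array 3 of day 0 was the highest of its group for Enpp6, Gpr17, Myrf, Cldn11, Fa2h and Ugt8a. Averaged over the 21 precursor genes, the log2 signal was 8.91, 8.97 and 8.89 at day 4, against 8.07, 7.95 and 8.35 at day 0. Without day 0 array 3 the Enpp6 change was 3.86, and it kept its call under each of the 6 leave-one-out fits.

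**Figure D2:**
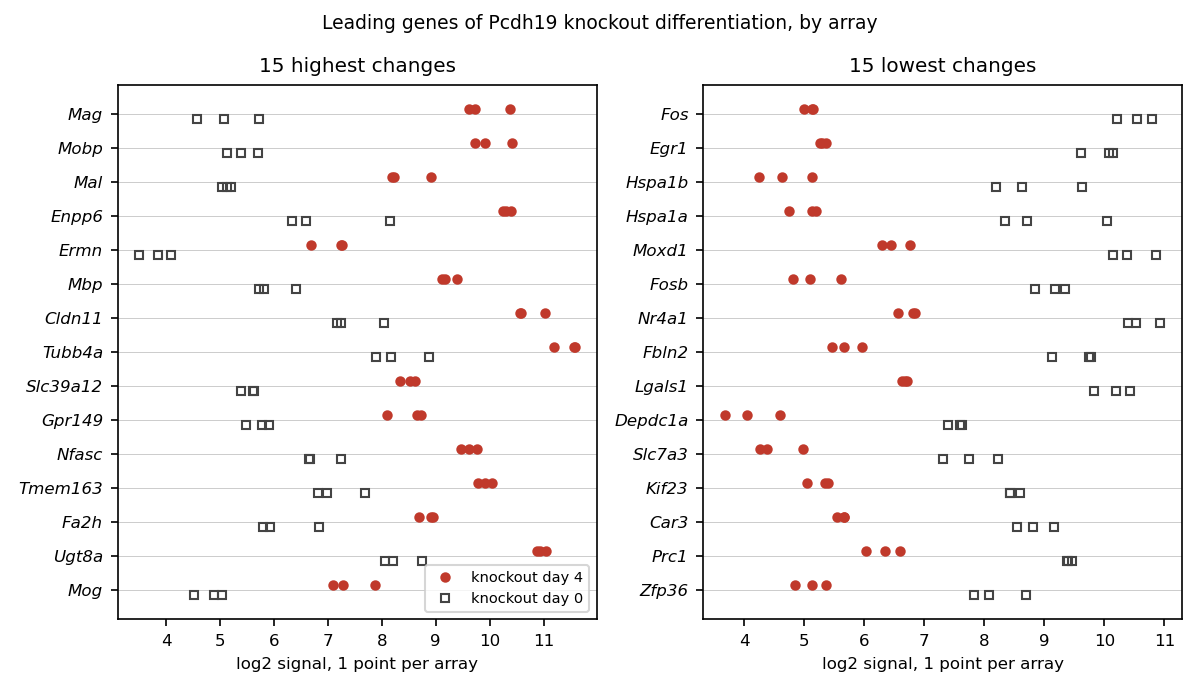
Log2 signal (horizontal axis) on each knockout array for the 15 genes with the highest change and the 15 with the lowest among called genes whose days did not overlap. Filled circles are the 3 day 4 arrays and open squares the 3 day 0 arrays, and Enpp6 shows the widest day 0 spread of the left panel.

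Astrocyte genes rose as a group with exceptions that include the best known marker. Of 29, 20 rose, 4 fell and 5 did not pass (median 0.68). Clu, a secreted chaperone, reached 10.09 at day 4, against at most 8.05 at day 0 (2.36 ± 0.17, adjusted p = 3.10e-08). S100b rose by 2.09 ± 0.22, the metallothionein gene Mt3 by 1.70 ± 0.11, and Glul, the glutamine synthetase that clears glutamate, by 1.54 ± 0.09. Glul was among the brightest genes of the list, at 12.25, 12.36 and 12.43 on day 4, against 10.78, 10.91 and 10.72 on day 0. Gfap, the intermediate filament of reactive and mature astrocytes, was lower at day 4, at 6.57, 6.96 and 7.17, against 7.93, 7.59 and 8.77 at day 0 (-1.20 ± 0.27, adjusted p = 0.00297). Its call held without any 1 array, with changes from -1.45 to -0.86, the smallest of them without day 0 array 3. Agt, the angiotensinogen gene, fell by 1.67 ± 0.14, while Ntsr2 (-0.78) and Aldh1l1 (-0.57) were the other members that fell. The Aldh1l1 call was lost without day 4 array 1 or day 0 array 3, with changes of -0.68 to -0.42 over the arrays left out and an adjusted p of up to 0.082. Fabp7, a lipid carrier of radial glia, stayed at 13.33, 13.25 and 13.29 at day 4, against 13.28, 13.20 and 13.16 at day 0, and did not pass (0.08 ± 0.07).

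Genes for the neuronal cytoskeleton and for neuronal RNA-binding proteins were higher in 23 of 30 cases, lower in none and not passed in 7 (median 0.59). Elavl3, an RNA-binding protein of young neurons, measured 9.87, 9.98 and 9.91 at day 4, against 7.64, 7.65 and 7.90 at day 0 (2.19 ± 0.11, adjusted p = 1.47e-09). Dcx, a microtubule protein of migrating neuroblasts, measured 9.94, 9.48 and 9.17 at day 4, against 7.62, 7.25 and 7.90 at day 0 (1.94 ± 0.20). Map1b, Kif5c, Celf4 and Ina rose by 1.73 ± 0.18, 1.71 ± 0.16, 1.57 ± 0.27 and 1.33 ± 0.19. Of the smaller rises, Stmn2 and Nova1 each lost their call without 5 of the 6 knockout arrays in turn, and Stmn3 without 4. Stmn4 and Nova2 each lost theirs without 2 of the arrays in turn, and Celf3, Celf5 and Dpysl3 without 1. Members usually listed as neuronal that did not pass were Map2 (0.14), Nefm (-0.08), Nefh (0.12), Gap43 (0.01), Elavl2 (0.03), Elavl4 (-0.28) and Rbfox1 (0.16). Day 4 array 1 was the highest of its group for Dcx, Kif5c and Celf4, and the list averaged 7.89, 7.74 and 7.58 at day 4, against 7.03, 6.95 and 7.06 at day 0.

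Synaptic genes were more mixed. Among 27 genes of vesicle release, 13 rose, 3 fell and 11 did not pass (median 0.36). Syt1, the calcium sensor of synaptic vesicles, measured 9.12, 8.72 and 7.88 at day 4, against 6.10, 6.31 and 6.05 at day 0 (2.42 ± 0.31, adjusted p = 1.98e-05). Sv2a rose by 1.5 ± 0.14, Snap91 by 1.34 ± 0.11 and Rab3a by 1.3 ± 0.11. Amph, an endocytic adaptor, fell by 1.25 ± 0.09, and Rab3b fell by 1.22 ± 0.40 with an adjusted p of 0.0327. The Rab3b call held only without day 0 array 3 (-1.75) and was lost without any other single array, with -0.79 and an adjusted p of 0.183 without day 0 array 2. Of 28 synaptic adhesion genes, 18 rose, 3 fell and 7 did not pass (median 0.52). Nfasc, which gathers channels at the axon initial segment and node, measured 9.61, 9.46 and 9.77 at day 4, against 6.66, 6.65 and 7.24 at day 0 (2.76 ± 0.17, adjusted p = 7.61e-09). Day 0 array 3 was the highest of its group for Nfasc, as for the oligodendrocyte genes above, and which cells made its RNA was not tested. Cadm3 rose by 1.64 ± 0.18 and Flrt1 by 1.53 ± 0.17, whereas Lrrtm2, a postsynaptic partner of neurexins, fell by 1.13 ± 0.14.

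Of 20 genes of the GABA neuron program, 6 rose, 1 fell and 13 did not pass (median 0.11). Calb2, the calcium buffer calretinin, rose by 1.13 ± 0.29, at 5.01, 5.67 and 4.58 on day 4, against 3.63, 3.86 and 4.38 on day 0, and the homeobox gene Dlx5 rose by 0.96 ± 0.23. The rise of Gad1 (0.41) lost its call without day 4 array 1 or 2 or day 0 array 1 or 2 (adjusted p up to 0.171 in limma). That of Gad2 (0.46) lost its call without day 4 array 3 or day 0 array 2. That of Sp9 (0.65) lost its call without day 4 array 1 or day 0 array 1. Sp8 fell by 0.83 ± 0.23, with an adjusted p of 0.0131 that was 0.0751 without day 4 array 1 and 0.0745 without day 0 array 3. Without day 4 array 3 the falls of this list numbered 2. The subtype genes Sst (-0.11), Pvalb (0.08) and Vip (-0.06) did not pass. The list averaged 5.05, 5.18 and 5.10 at day 4, against 4.87, 4.93 and 5.04 at day 0, near the array medians of 4.85 to 4.99. Calls were fewer at such signal, so members of this list that did not pass say little about these neurons. Of 17 genes of the glutamate neuron program, 4 rose, 2 fell and 11 did not pass (median 0.17), among them Slc17a7 (0.33) and Tbr1 (0.17). The 4 that rose were Bcl11b (0.72), Neurod2 (0.55), Insm1 (0.53) and Cux2 (0.35), and Insm1 alone kept its call whichever array was left out. Without day 4 array 1 it was the only one of the 4 still called, and without any other single array 2 or 3 of the 4 were. The 2 falls numbered 1 without day 4 array 2 or day 0 array 3 and 0 without day 4 array 3, day 0 array 1 or day 0 array 2.

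Of 10 GABA-A receptor genes tested, 4 rose, none fell and 6 did not pass (median 0.16). Gabra4 measured 6.10, 6.18 and 6.27 at day 4, against 3.94, 3.90 and 3.58 at day 0 (2.38 ± 0.22, adjusted p = 5.73e-07). Gabrb1 rose by 2.10 ± 0.26 and Gabrg3 by 0.97 ± 0.14. Of 17 glutamate receptor genes, 5 rose, 3 fell and 9 did not pass (median 0.27). Grik3, a kainate receptor subunit, rose by 1.73 ± 0.18, at 9.14, 9.07 and 9.24 on day 4, against 7.42, 6.98 and 7.85 on day 0, while the AMPA receptor gene Gria3 fell by 0.96 ± 0.19.

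**Figure D3:**
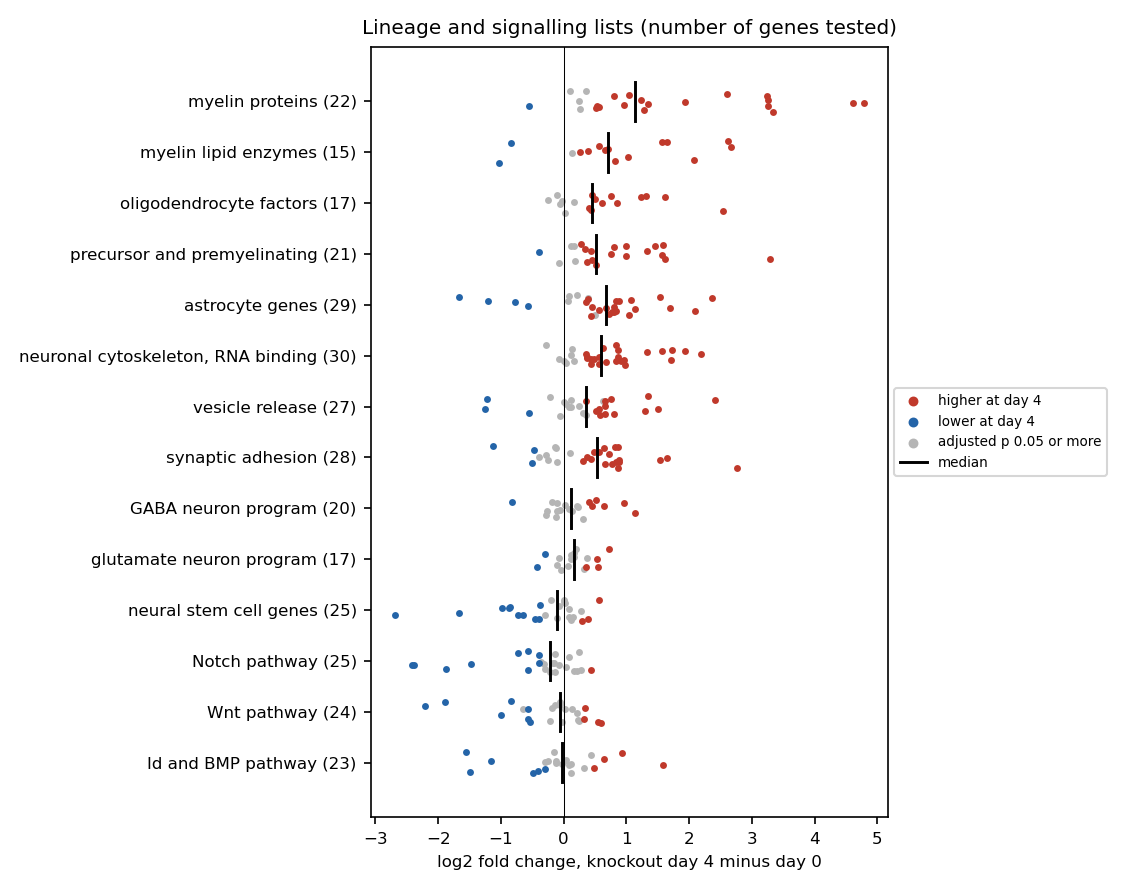
Log2 fold change of each list member in knockout cultures, day 4 minus day 0 (horizontal axis), for 14 lists of lineage and signalling genes. Points are genes coloured by call, black bars are list medians, and the myelin protein median lies at 1.14 while those of the Notch, Wnt and Id lists lie at or below 0.

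Of 25 stem cell genes, 3 rose, 10 fell and 12 did not pass (median -0.10). Tnc, the matrix protein tenascin C of the stem cell niche, measured 7.42, 7.30 and 7.66 at day 4, against 10.14, 10.10 and 10.21 at day 0 (-2.69 ± 0.22, adjusted p = 1.58e-07). Nes, the intermediate filament nestin, measured 6.97, 6.95 and 6.89 at day 4, against 8.91, 8.78 and 8.11 at day 0 (-1.66 ± 0.17). Vim fell by 0.98 ± 0.08, the growth factor receptor gene Egfr by 0.87 ± 0.12 and Rfx4 by 0.86 ± 0.10. The members that rose were Prom1 (0.57), which encodes the membrane protein prominin, the glutamate transporter gene Slc1a3 (0.39) and the RNA-binding protein gene Msi1 (0.30). The Msi1 call held only without day 0 array 3 and was lost without any other single array, with an adjusted p of 0.2 without day 0 array 2. The stem cell factor genes Sox2 (-0.10 ± 0.08) and Sox9 (0.11) did not pass, and Sox2 stayed at 10.91, 10.88 and 10.71 on day 4, against 11.04, 10.90 and 10.87 on day 0.

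Several Notch target genes fell. In the Notch pathway list of 25, 1 rose, 9 fell and 15 did not pass (median -0.22). Notch receptors are cut on contact with a ligand and then act with Rbpj on repressors of the Hes and Hey families. Hes1 measured 6.68, 6.55 and 6.52 at day 4, against 8.98, 9.04 and 8.87 at day 0 (-2.38 ± 0.13, adjusted p = 2.12e-09), and Hey2 measured 6.36, 5.97 and 6.47 at day 4, against 8.89, 8.57 and 8.61 at day 0 (-2.42 ± 0.14). Hey1 fell by 1.47 ± 0.13 and Hes5 by 1.87 ± 0.17, though a second, dimmer probe set for Hes5 changed by -0.07. Notch1 fell by 0.57 ± 0.10, whereas Notch2 (0.17), Notch3 (-0.17), Jag1 (-0.13) and Hes6 (0.04) did not pass. The member that rose was Dner, a neuronal Notch ligand, by 0.44, and 2 members rose without day 4 array 1 or day 0 array 3.

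Id and BMP genes moved in both directions, with 4 of 23 higher, 6 lower and 13 not passed (median -0.03). Id proteins hold back differentiation factors. Id3 measured 6.88, 7.46 and 7.54 at day 4, against 8.82, 9.24 and 8.29 at day 0 (-1.49 ± 0.22), and Id1 fell by 1.15 ± 0.23. Bmp4, a ligand that raises Id genes in many cells and also a product of premyelinating oligodendrocytes, measured 7.64, 7.80 and 7.40 at day 4, against 5.67, 5.59 and 6.85 at day 0 (1.58 ± 0.34, adjusted p = 0.00217). The inhibitory Smad7 rose by 0.93 ± 0.15, and the extracellular BMP regulator Bmper fell by 1.55 ± 0.14. In the Wnt list of 24, 4 rose, 7 fell and 13 did not pass (median -0.06). Of the rises, Notum and Rnf43 lost their call without day 4 array 1, day 4 array 2 or day 0 array 2, which left 2. Apcdd1, a membrane inhibitor of Wnt signalling, fell by 2.21 ± 0.23 and the secreted inhibitor Sfrp4 by 1.89 ± 0.19, while Sfrp1 rose by 0.60 ± 0.10 and the feedback target Axin2 (-0.06) did not pass.

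Genes of growth factor signalling through ERK moved in both directions. Of 31, 9 rose, 9 fell and 13 did not pass (median 0.05). Dusp1 and Dusp5, phosphatases that switch off MAP kinases, fell by 2.22 ± 0.15 and 2.11 ± 0.14, and Ier3 by 2.15 ± 0.16. Erbb3, a neuregulin receptor, measured 6.38, 6.46 and 7.05 at day 4, against 4.6, 5.2 and 4.82 at day 0 (1.76 ± 0.20, adjusted p = 5.17e-06). Fgf1 rose by 1.25 ± 0.19 and Erbb4 by 1.18 ± 0.18. The receptor gene Egfr fell (-0.87), and the feedback inhibitor gene Spred1 rose by 0.58. Spred2, a second such inhibitor, rose by 0.29 (adjusted p = 0.0317) and lost its call without 4 of the 6 arrays in turn, which were day 4 arrays 1 and 3 and day 0 arrays 1 and 3. The ERK-driven factors Etv1 (-0.03), Etv4 (0.21) and Etv5 (0.17) did not pass.

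All 28 genes of mitosis and the spindle fell, by 1.74 to 3.22 on the log2 scale (median -2.66), beside the 12.4% of all genes that fell. This list too was chosen with earlier results of these data known, so that contrast is no separate support. Kif23, a kinesin of the midbody between daughter cells, measured 5.05, 5.39 and 5.35 at day 4, against 8.59, 8.43 and 8.42 at day 0 (-3.22 ± 0.22, adjusted p = 2.90e-08). Prc1, which bundles the microtubules of the central spindle, measured 6.03, 6.35 and 6.59 at day 4, against 9.46, 9.39 and 9.38 at day 0 (-3.09 ± 0.25). The kinetochore gene Ndc80 fell by 3.01 ± 0.21, the cyclin gene Ccnb2 by 2.99 ± 0.23, the spindle pole gene Aspm by 2.98 ± 0.13 and the motor gene Cenpe by 2.97 ± 0.18. Depdc1a, also expressed in dividing cells, stood among the 15 lowest of all genes at -3.43 ± 0.22. Day 4 array 1 had the lowest mean over the list, with 5.72, 6.02 and 6.18 at day 4, against 8.58, 8.53 and 8.47 at day 0.

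Because the mitotic genes moved together, the promoters of Kif23 and Prc1, both among the 15 lowest genes, are shown from RefSeq (GRCm38.p6, from 250 bases before to 50 after the annotated start, 5′ to 3′ on the gene's strand). Capitals mark the letters TTTGAA of the cell cycle genes homology region, which the DREAM repressor complex binds. Kif23 lies at chr9:61946750-61947049 on the minus strand and Prc1 at chr7:80294201-80294500 on the plus strand.
Kif23: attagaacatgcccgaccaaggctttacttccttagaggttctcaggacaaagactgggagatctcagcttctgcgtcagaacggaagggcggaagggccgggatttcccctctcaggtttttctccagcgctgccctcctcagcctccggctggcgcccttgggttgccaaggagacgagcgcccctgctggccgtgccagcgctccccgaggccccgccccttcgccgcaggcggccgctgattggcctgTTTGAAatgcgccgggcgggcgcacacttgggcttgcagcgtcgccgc
Prc1: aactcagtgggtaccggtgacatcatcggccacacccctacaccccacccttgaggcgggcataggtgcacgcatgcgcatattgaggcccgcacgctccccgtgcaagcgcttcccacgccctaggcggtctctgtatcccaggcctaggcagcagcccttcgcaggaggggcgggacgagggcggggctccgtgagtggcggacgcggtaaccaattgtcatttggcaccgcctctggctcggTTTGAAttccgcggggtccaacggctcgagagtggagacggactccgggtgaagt
The match began 2 bases after the start in Kif23 and 5 bases before it in Prc1. Of the 26 promoters listed for 24 of the mitosis genes, 22 held TTTGAA on either strand (84.6%), and 17.9% of all 32851 promoters of that length did. The 22 belonged to 20 genes. A match describes these letters only and does not show binding.

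Of 30 DNA replication genes, 19 fell, none rose and 11 did not pass (median -0.62). Rrm2, the regulated subunit of ribonucleotide reductase, measured 5.30, 5.67 and 5.49 at day 4, against 7.12, 7.15 and 6.84 at day 0 (-1.55 ± 0.20). The polymerase gene Pole fell by 1.10 ± 0.20 and the helicase gene Mcm5 by 1.01 ± 0.18, whereas Pcna (-0.13), Tyms (-0.08) and Gins2 (-0.09) did not pass. Of 23 regulators of G1, 11 fell, 2 rose and 10 did not pass (median -0.29). The inhibitors of cyclin-dependent kinases were among those that fell. Cdkn2c measured 5.63, 5.76 and 5.73 at day 4, against 7.52, 7.36 and 7.18 at day 0 (-1.65 ± 0.13), Cdkn1a fell by 1.61 ± 0.15 and Cdkn1b by 1.06 ± 0.09. Their partner kinase Cdk6 fell by 1.48 ± 0.16, Ccnd3 rose by 0.58, and Cdkn1c (0.26) did not pass.

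Immediate early genes, which cells transcribe within minutes of a stimulus, had the lowest values of the whole comparison. Of 35, 26 fell, 2 rose and 7 did not pass (median -1.46), and 21 fell at least 2-fold. Fos measured 5.14, 5.0 and 5.13 at day 4, against 10.55, 10.21 and 10.80 at day 0 (-5.43 ± 0.12, 43.2-fold, adjusted p = 2.26e-14). Egr1 measured 5.30, 5.37 and 5.26 at day 4, against 10.15, 9.61 and 10.08 at day 0 (-4.64 ± 0.14, adjusted p = 2.75e-12). The day 4 arrays lay close together for both, and the gap between days was over 4 log2 units. Fos and Egr1 were also picked from genes whose days did not overlap, so that gap is no separate support. Fosb fell by 3.95 ± 0.25, the nuclear receptor gene Nr4a1 by 3.87 ± 0.21, Zfp36, whose product destabilises mRNA, by 3.08 ± 0.21 and Ier2 by 2.98 ± 0.17. Against these, Ptgs2, the inducible cyclooxygenase, rose by 0.94 ± 0.22 and Myc by 0.72 ± 0.11, at 9.04, 9.03 and 8.88 on day 4, against 8.37, 8.11 and 8.33 on day 0. Arc (-0.18), Npas4 (-0.35) and Homer1 (0.10), which report activity in neurons, did not pass. How long after handling the day 0 and day 4 RNA was taken is not given in the sources used here, and its part in these genes was not tested.

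**Figure D4:**
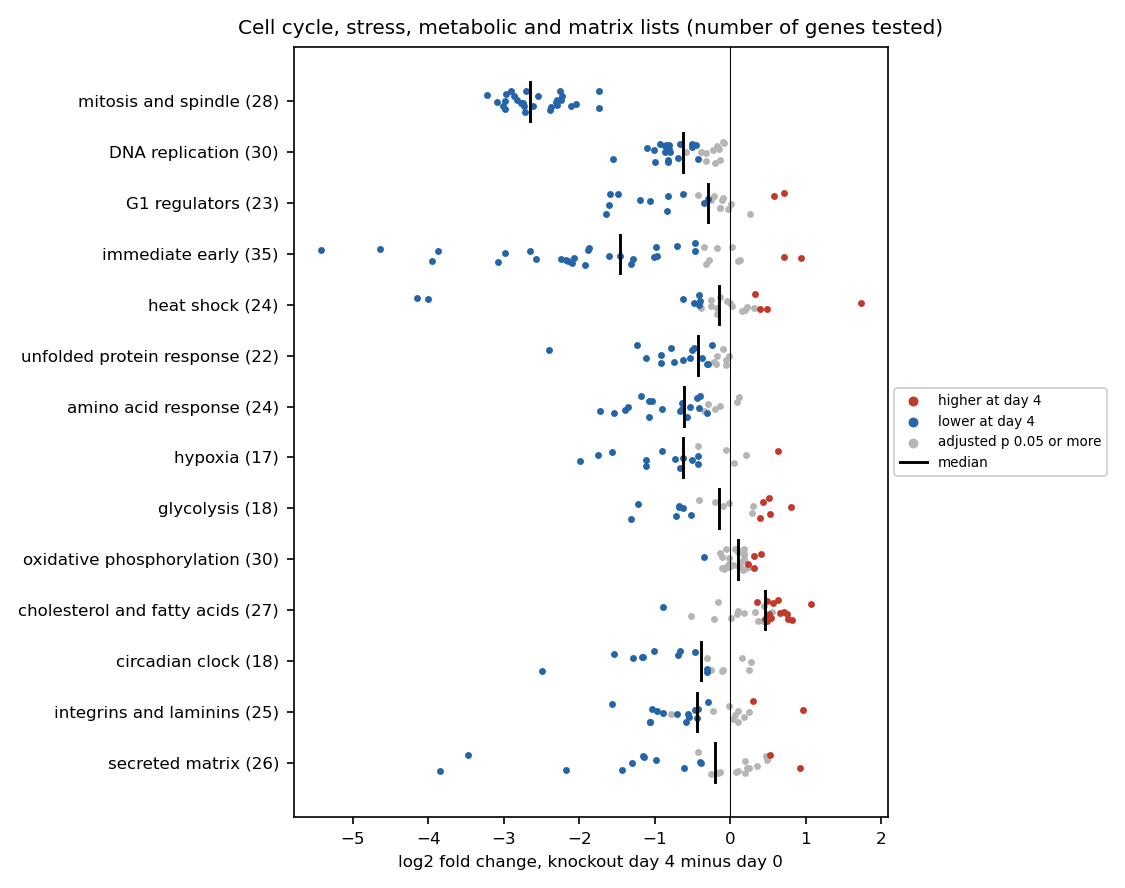
Log2 fold change of each list member in knockout cultures, day 4 minus day 0 (horizontal axis), for 14 lists of cell cycle, stress, metabolic and matrix genes. Points are genes coloured by call and black bars are list medians, and the mitosis list lies wholly at or below -1.74 while the immediate early list reaches -5.43.

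The lowest heat shock values were those of a pair of near-identical copies. Of 24 genes, 4 rose, 7 fell and 13 did not pass (median -0.15). Hspa1b measured 4.24, 4.63 and 5.13 at day 4, against 8.62, 8.19 and 9.62 at day 0 (-4.15 ± 0.39, adjusted p = 5.87e-07), and Hspa1a measured 5.19, 4.75 and 5.13 at day 4, against 8.71, 8.34 and 10.05 at day 0 (-4.01 ± 0.43). Their sequences are so alike that probes may not separate them, and day 0 array 3 was the highest for both. The next largest fall was that of Hspa4l (-0.63 ± 0.11), and the constitutive chaperone Hspa8 (-0.04) and Hsp90aa1 (-0.25) did not pass. Cryab, a small heat shock protein abundant in oligodendrocytes, went up by 1.73 ± 0.31, at 7.36, 8.05 and 8.23 on day 4, against 5.69, 6.26 and 6.49 on day 0.

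Of 22 genes of the unfolded protein response, 15 fell, none rose and 7 did not pass (median -0.42). Hspa5, the chaperone BiP of the endoplasmic reticulum, measured 7.95, 7.78 and 7.77 at day 4, against 10.40, 10.05 and 10.27 at day 0 (-2.40 ± 0.11, 5.3-fold, adjusted p = 2.68e-10). Ddit3, the stress factor CHOP, fell by 1.23 ± 0.12. Herpud1, Hsp90b1 and Manf also fell, with changes of -1.12 ± 0.12, -0.92 ± 0.08 and -0.92 ± 0.11. Sdf2l1 (-0.06), Dnajb11 (-0.02) and Syvn1 (-0.10) did not pass.

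The promoters of the lowest gene of the heat shock list and of the unfolded protein response list are shown for their known elements (RefSeq, GRCm38.p6, the same window). Hspa1b lies at chr17:34959189-34959488 on the minus strand, with capitals on GAANNTTC, a pair of inverted heat shock units bound by HSF1. Hspa5 lies at chr2:34771840-34772139 on the plus strand, with capitals on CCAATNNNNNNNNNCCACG, the endoplasmic reticulum stress element.
Hspa1b: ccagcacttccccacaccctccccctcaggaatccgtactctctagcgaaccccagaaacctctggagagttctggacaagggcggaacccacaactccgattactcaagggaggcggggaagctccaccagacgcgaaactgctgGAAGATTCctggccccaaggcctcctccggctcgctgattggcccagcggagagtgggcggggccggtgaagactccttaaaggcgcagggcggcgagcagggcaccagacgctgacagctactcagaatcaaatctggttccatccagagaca
Hspa5: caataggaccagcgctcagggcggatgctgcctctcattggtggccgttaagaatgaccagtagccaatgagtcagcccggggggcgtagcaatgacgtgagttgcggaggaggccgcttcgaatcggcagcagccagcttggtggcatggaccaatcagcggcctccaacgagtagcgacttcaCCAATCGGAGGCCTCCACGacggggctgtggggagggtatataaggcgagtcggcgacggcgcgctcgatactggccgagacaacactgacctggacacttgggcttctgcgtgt
The matches began 104 bases before the start in Hspa1b and 65 before it in Hspa5. GAANNTTC stood in 13 of 25 promoters of the heat shock list (52%, from 11 of 20 genes) and in 7.86% of all promoters. The stress element stood in 9 of 19 promoters of the unfolded protein list (47.4%) and in 0.119% of all. The genes that hold GAANNTTC moved in both directions. Hspa1a, Hspa1b, Hsph1 (-0.41) and Bag3 (-0.40) fell, whereas Fkbp4 (0.33) and Hspb8 (0.49) rose. The Hspb8 call was lost without day 4 array 2 or 3 or day 0 array 1 or 3. Hspd1, Hspe1 and Chordc1 were among the holders that did not pass. In 34 promoters of the immediate early list, the cAMP response element TGACGTCA stood in 2 (5.88%, beside 1.79% of all) and the CArG box in 6 (17.6%, beside 1.63% of all). The 34 belonged to 27 genes, and the 6 with a CArG box to 3 of them, Egr2, Srf and Zfp36. The listed Fos window held neither exact pattern, and variants of the patterns and sites outside the window were not searched.

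Genes of the amino acid response, which Atf4 switches on when amino acids are short or protein folding fails, fell in 18 of 24 cases, rose in none and did not pass in 6 (median -0.60). Shmt2, the mitochondrial serine enzyme, measured 8.58, 8.90 and 9.17 at day 4, against 10.56, 10.54 and 10.69 at day 0 (-1.72 ± 0.16, adjusted p = 7.37e-07). Asns fell by 1.4 ± 0.18, the leucine transporter gene Slc7a5 by 1.36 ± 0.22, Atf5 by 1.18 ± 0.22 and Mthfd2 by 1.07 ± 0.23. Slc7a3, a transporter of cationic amino acids, stood among the 15 lowest genes at 4.27, 4.38 and 4.98 on day 4, against 7.75, 7.32 and 8.23 on day 0 (-3.22 ± 0.41). Phgdh (-0.14), Slc7a11 (0.09) and Stc2 (0.12) did not pass.

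Of 17 hypoxia genes tested, 12 fell, 1 rose and 4 did not pass (median -0.62). Vegfa, the growth factor of vessels, measured 8.09, 7.85 and 8.34 at day 4, against 10.19, 9.83 and 10.22 at day 0 (-1.99 ± 0.24). Adm fell by 1.75 ± 0.15 and Ero1a by 1.56 ± 0.17, while the glucose transporter gene Slc2a1 rose by 0.64 and Car9 (-0.06) did not pass. Glycolytic genes divided into 5 that rose, 7 that fell and 6 that did not pass of 18 (median -0.15). Tpi1 fell by 1.31 ± 0.15 and Ldha by 1.22 ± 0.12, whereas Aldoc, the aldolase of astrocytes, rose by 0.81 ± 0.11 and Ldhb by 0.43. Genes of oxidative phosphorylation changed little, with 4 of 30 higher, 1 lower and 25 not passed (median 0.10), and the 4 rises went to 0 without day 4 array 1 and to 0 without day 0 array 3. The 13.3% of this list that rose lay near the 15% of all genes.

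Synthesis of cholesterol and fatty acids, both building blocks of myelin, was higher at day 4 for 14 of 27 genes, lower for 1 and not passed for 12 (median 0.46). Lss, which closes the sterol ring system, measured 8.88, 8.92 and 8.86 at day 4, against 7.80, 7.67 and 7.98 at day 0 (1.07 ± 0.27, adjusted p = 0.00607). Acaca, the first enzyme of fatty acid synthesis, rose by 0.77 ± 0.08 and Fasn by 0.72 ± 0.08. Mvd and Cyp51 rose by 0.82 ± 0.17 and 0.75 ± 0.20. Insig1, which holds the sterol sensor back, fell by 0.89 ± 0.17, and the regulator gene Srebf1 (-0.22) did not pass.

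Secreted matrix genes included some of the deepest falls. Of 26 tested, 11 fell, 2 rose and 13 did not pass (median -0.20). Fbln2, a fibulin of elastic fibres and basement membranes, measured 5.46, 5.66 and 5.97 at day 4, against 9.74, 9.77 and 9.13 at day 0 (-3.85 ± 0.19, 14.4-fold, adjusted p = 7.52e-10). Lgals1, the galectin-1 gene, measured 6.68, 6.63 and 6.72 at day 4, against 10.20, 10.43 and 9.83 at day 0 (-3.48 ± 0.18). Adamts1 fell by 2.17 ± 0.16, Timp1 by 1.43 ± 0.21 and Igfbp5 by 1.3 ± 0.12. Adamts5 (0.92) and the brain proteoglycan gene Cspg5 (0.53) rose, while Ncan (0.23) and Bcan (0.20) did not pass. Moxd1, a copper monooxygenase, and Car3, a carbonic anhydrase, belong to no list here and fell by 3.96 ± 0.22 and 3.22 ± 0.19.

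Integrins and laminins, which anchor cells to the matrix, fell in 14 of 25 cases, rose in 2 and did not pass in 9 (median -0.44). Itga2 measured 7.03, 6.93 and 7.08 at day 4, against 8.42, 8.41 and 8.91 at day 0 (-1.57 ± 0.16). Itga7 fell by 1.04 ± 0.10, the laminin receptor gene Itga6 by 0.97 ± 0.10 and Lamb1 by 1.06 ± 0.13. Itgb5 rose, at 9.53, 9.48 and 9.60 on day 4, against 8.55, 8.62 and 8.54 on day 0 (0.96 ± 0.10), as did the dystroglycan gene Dag1 (0.30). Of 25 collagen genes, 5 fell, 2 rose and 18 did not pass (median -0.09), with Col5a2 at -1.08 ± 0.11. The collagen rises numbered 1 without day 4 array 1, day 4 array 2 or day 0 array 3, and the falls numbered 3 without day 4 array 3. Of 25 genes of contractile actin and its partners, 9 fell, 4 rose and 12 did not pass (median -0.24). S100a10 and Tagln2 fell, with changes of -2.12 ± 0.27 and -1.77 ± 0.18, while S100a6 rose by 0.95 ± 0.24.

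Among protocadherins and cadherins, the family of Pcdh19, 9 of 26 rose, 6 fell and 11 did not pass (median 0.07). Without day 0 array 2 the rises numbered 5, with Pcdh11x, Pcdh15, Celsr2 and Celsr3 no longer called. Cdh11 measured 9.60, 9.51 and 9.52 at day 4, against 8.30, 8.02 and 8.53 at day 0 (1.26 ± 0.12, adjusted p = 7.90e-07). Pcdh1 measured 6.63, 6.61 and 6.61 at day 4, against 5.66, 5.44 and 5.49 at day 0 (1.09 ± 0.13), and Pcdh17, of the same subfamily as Pcdh19, rose by 0.73 ± 0.10. Cdh19 fell by 1.62 ± 0.27, the polarity cadherin gene Celsr1 by 0.76 ± 0.16 and Cdh13 by 0.68 ± 0.09. Cdh2, the N-cadherin that joins Pcdh19 in adhesion, did not pass (0.02), nor did Pcdh8 (0.00) and Pcdh9 (0.12).

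Of the 11 genes of the WAVE complex and its partners, which join protocadherins to actin, 5 rose, 1 fell and 5 did not pass (median 0.11). Cyfip2 measured 10.28, 10.59 and 10.34 at day 4, against 8.90, 8.71 and 9.29 at day 0 (1.44 ± 0.13), and Wasf1 rose by 0.71 ± 0.08. Of 37 axon guidance genes, 16 rose, 7 fell and 14 did not pass (median 0.10). Without day 4 array 3 the falls numbered 4, with Epha4, Robo2 and Slit1 no longer called. Sema4d, a semaphorin made by oligodendrocytes, measured 6.98, 7.04 and 7.30 at day 4, against 4.66, 4.48 and 4.96 at day 0 (2.41 ± 0.20, adjusted p = 1.47e-07). The netrin receptor gene Unc5c rose by 1.73 ± 0.11 and Sema5a by 1.48 ± 0.15, whereas the repellent Sema3a fell by 1.60 ± 0.15.

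The circadian clock list held no gene that rose. Of 18, 11 fell and 7 did not pass (median -0.39). Bhlhe40, a repressor that also answers to hypoxia and growth factors, measured 8.04, 7.59 and 7.92 at day 4, against 10.35, 10.27 and 10.41 at day 0 (-2.49 ± 0.11, adjusted p = 2.03e-10). Per1 fell by 1.54 ± 0.11. Nr1d1 and Nr1d2, the REV-ERB repressors, changed by -1.16 ± 0.12 and -1.17 ± 0.15, and both passed. The activators Arntl (-0.10) and Clock (-0.25) and the repressor Cry1 (0.25) did not pass. The hour at which RNA was taken is not given in the sources used here, and its part was not tested.

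Markers of other cell types that such cultures could hold came next. Of 11 microglial, 8 endothelial and 9 ependymal genes tested, 0 passed in limma and 0 had an unadjusted p under 0.05, while 1 endothelial gene passed without day 0 array 3. Over all genes 27.4% passed, but only 5.62% of the dimmest 4754 and 17.9% of the next 4754. The mean levels of these 3 lists lay at or below the array medians of 4.85 to 4.99, so the counts of 0 say little about these cell types. The mean log2 level of the microglial list was 4.64 to 4.74 over the day 4 arrays and 4.64 to 4.70 over the day 0 arrays, with 4 of 12 genes above the array median on all 3 day 4 arrays and 2 of 12 on all 3 day 0 arrays. The endothelial list had 2 of 10 above the median at day 4 and 1 of 10 at day 0. In the list of mural cells and fibroblasts 2 of 9 rose and 7 did not pass, and both were receptors of platelet-derived growth factor. Pdgfrb measured 7.54, 7.68 and 7.5 at day 4, against 5.81, 4.57 and 5.48 at day 0 (2.29 ± 0.23), and Pdgfra, which also marks oligodendrocyte precursors, rose by 1.0 ± 0.13. The fibroblast collagens Col1a1 (-0.07), Col1a2 (-0.13) and Col3a1 (-0.28) did not pass. Of 6 Schwann cell genes, Mbp and Sox10 rose, Egr2 fell by 2.66 ± 0.27, and Foxd3 (0.01), Ngfr (0.30) and Pmp2 (0.07) did not pass.

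The knockout change was set against the wild type change in the same model, as a difference of differences. No gene of 19016 passed (0%), the lowest adjusted p in limma was 0.066, and 1809 genes had an unadjusted p under 0.05. The median 95% interval of a gene's difference reached 0.378 log2 units to either side before any adjustment for the number of genes, and the count of 0 does not show that the genotypes changed alike. Of the 5211 genes called in the knockout, 3958 were called in the same direction in wild type, which is 76% of the knockout list and 62% of the 6386 wild type genes, and 8 were called in opposite directions. The mosaic had 4989 called genes, and 672 of the knockout genes were called in neither of the other cultures. Mag changed by 4.79 in the knockout and 4.87 in wild type (difference -0.09 ± 0.49), Fos by -5.43 and -5.48, and Hspa1b by -4.15 and -3.24. The mitosis list had a median of -2.66 in the knockout, -2.17 in the mosaic and -2.34 in wild type, with 1 of 28 genes at an unadjusted p under 0.05 for the difference from wild type.

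The 6 lowest differences from wild type by moderated t were those of Gm21370, Dlx6, Alk, Lrrc25, Lrrc17 and Klk1b21. Gm21370, a predicted gene, measured 5.39, 5.48 and 5.55 at knockout day 4, against 5.71, 6.03 and 5.80 at knockout day 0, and its difference was -0.95 ± 0.14 (adjusted p = 0.066). Dlx6, a homeobox gene of GABA neurons, changed by -0.18 in the knockout and 0.66 in wild type (difference -0.84 ± 0.15, adjusted p = 0.233). Alk, a receptor kinase of developing neurons, changed by -0.38 and 0.59 (difference -0.97 ± 0.17, adjusted p = 0.233). The 6 highest were those of Gm20172, Gid8, Mir680-1, Coq2, Mir186 and Tbrg3. Gid8, a subunit of a ubiquitin ligase, measured 7.42, 7.48 and 7.39 at knockout day 4, against 6.83, 6.86 and 6.86 at knockout day 0, a change of 0.58 beside 0.10 in wild type (difference 0.48 ± 0.10, adjusted p = 0.233).

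Signal level moved with these differences. In the dimmest 4754 genes the median log2 fold change was 0.01 in the knockout and 0.18 in wild type, and 552 of the 624 genes with an unadjusted p under 0.05 there had a difference below 0. In the brightest 4754 genes the medians were 0.02 in the knockout and -0.06 in wild type, and 8 of 258 such genes had a difference below 0. After quantile normalization the median difference of the dimmest 4754 genes was -0.01, against -0.15 as deposited. Dlx6, Alk, Lrrc25, Lrrc17 and Klk1b21 all had knockout signals of 3.48 to 5.22. The part of this shift in the single genes was not tested beyond these values.

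**Figure D5:**
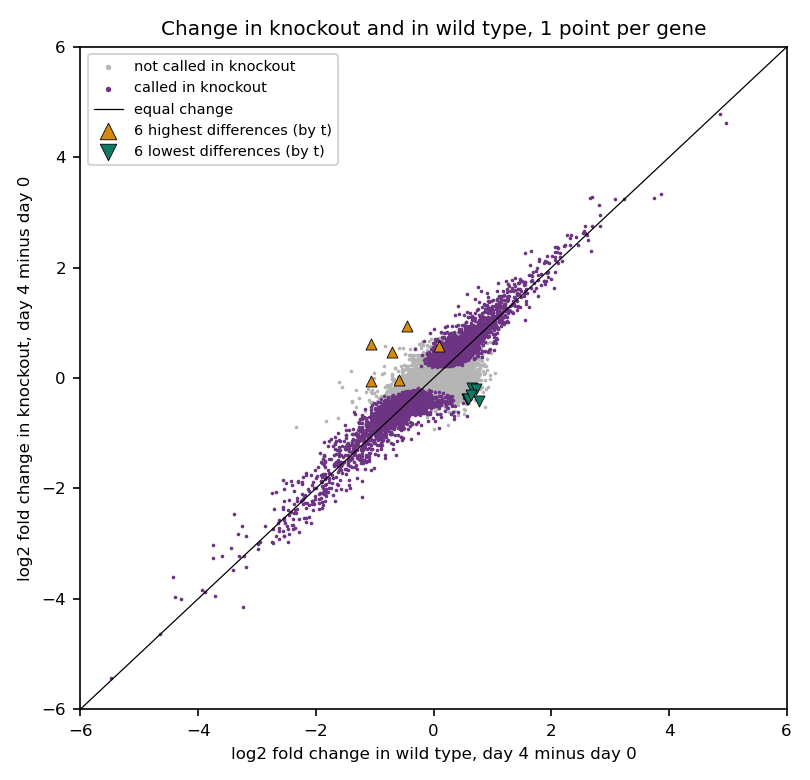
Log2 fold change of each gene in knockout cultures (vertical axis) against that in wild type cultures (horizontal axis), both day 4 minus day 0. Purple points are genes called in the knockout, the line marks equal change, and triangles mark the 6 highest and 6 lowest differences by moderated t, none of which passed the test.

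Against the mosaic, no gene of 19016 passed (0%), the lowest adjusted p in limma was 0.481, and 815 genes had an unadjusted p under 0.05. The 6 highest differences were those of Agbl2, Ly6g5b, Hsf5, Gm20172, Cda and Neurod4, and the 6 lowest those of Mcpt1, Esp38, 2310010J17Rik, Olfm5, Gcnt1 and Cpn1. Cda, a cytidine deaminase, had the brightest knockout signal of the 12 at 5.09, 5.09 and 5.31 on day 4, against 4.63, 4.43 and 4.75 on day 0. It changed by 0.56 in the knockout and -0.23 in the mosaic, and the other named genes were dimmer still.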

How the data were processed

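Signals per probe set were used as the authors deposited them, on a log2 scale read from the values (0.722 to 13.97 over 41345 probe sets). The sources used here state no background correction, normalization or log base, and fold changes assume base 2. Probe sets with exactly 1 platform symbol (23521; 1814 had several and 16010 none) gave 22180 genes, each read from the brightest of its probe sets by mean signal on the 18 arrays. Genes above the 25th percentile of at least 3 arrays were tested, 19016 in all, and 3164 were dropped.

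A mean for each of 6 groups was fitted to all 18 arrays with limma 3.58.1 in R 4.3.3 (lmFit, eBayes, two-sided, 12 residual and 4.36 prior degrees of freedom) and adjusted by Benjamini-Hochberg over all genes at 0.05. The model was first tested on simulated data. Errors with fold changes are SEs, with a median of 0.126 (0.178 for differences of differences). There are no detection calls, and precision was not compared between signal levels.

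The members and the 52 lists were chosen with earlier results of these data known, and 1089 of 1176 list entries matched a gene. Named genes are Pcdh19, the 15 highest and 15 lowest called genes whose days did not overlap (without predicted, clone, olfactory, small RNA and Y-linked genes), up to 6 called members of a list with the largest change, members that did not pass or went against the majority, and the 6 highest and lowest differences against wild type and mosaic. Alternatives were other normalizations, filters, probe set means, variance models, thresholds, a replicate block and leaving out each array. Promoters come from RefSeq (GRCm38.p6). Figures were drawn with matplotlib 3.10.9.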

Additional observations from a re-analysis of the deposited data

How the results depend on the processing

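The count of knockout genes called (5211) stayed between 4170 and 5577 under the other normalizations, filters, probe set means and variance models, and was 3510 at an adjusted p under 0.01 (1885 of them higher). Asking for a change above 1.5-fold left 681 genes, 291 higher and 390 lower. Leaving out 1 knockout array gave 4237 to 4849 called, 2318 to 2556 higher and 1919 to 2293 lower. The share of calls that were higher was 54.6%, 59.3% with a common array median and 42.7% at the 1.5-fold minimum.

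The difference from wild type, 0 genes as reported, gave 1 gene under quantile normalization, 1 under the 50th percentile filter, 1 with the replicate block and 2 without day 0 array 1 of the knockout (range 0 to 2 over arrays left out). The difference from mosaic gave 0 to 1, with 1 only without day 4 array 1 of the mosaic. Gm21370 had adjusted p values of 0.0481, 0.0299 and 0.0269 under quantile normalization, that filter and without that array, and Klk1b21 0.0388 with the block. The cause was not tested.

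With the replicate block 5096 knockout genes were called. Deviations of same-numbered knockout arrays correlated at 0.164, 0.0597 and 0.110, and each array correlated best with its own number. The same held in wild type (0.0437 to 0.0787) and mosaic (0.0153 to 0.0497). The labels give only a number, so the main model held no pairing, and whether the samples are paired was not tested. The check of named knockout genes covered 270, which were Pcdh19 and called genes with the largest changes of all genes or of their list. Named list members that did not pass were not in it. None of the 270 changed direction under any alternative, which a choice of large called changes favours. Of the 270, 126 lost their call at the 1.5-fold minimum, and 12 to 16 when 1 knockout array was left out. Precision is limited by 3 arrays a group. Calls were fewer at low signal, with 5.62% of the dimmest 4754 genes called and 45.8% of the brightest 4754. Whether that came from lower precision or from smaller changes was not tested.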

Other observations

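Other lists of the knockout comparison gave smaller or mixed changes. Among 29 ion channel and transport genes 10 rose, 1 fell and 18 did not pass (median log2 fold change 0.26), led by the potassium leak channel genes Kcnk1, at 8.19, 8.17 and 8.20 on day 4, against 6.62, 6.51 and 6.61 on day 0 (1.61 ± 0.13), and Kcnk2 (1.06 ± 0.14). The chloride importer gene Slc12a2 rose by 0.99 ± 0.11, and the neuronal exporter gene Slc12a5 did not pass (-0.06). Of 26 genes of lysosomes and autophagy, 10 rose, 4 fell and 12 did not pass (median 0.17). Without day 4 array 2 the falls numbered 2, with Hexa and Tpp1 no longer called. The list held Ctsl at 0.77 ± 0.10, Lamp1 at 0.62 ± 0.07 and Ctsh at -1.22 ± 0.18. Npc1 fell by 0.68 ± 0.09, while its second, dimmer probe set changed by 0.10. Of 11 hedgehog genes 2 rose, 1 fell and 8 did not pass (median 0.08), and 2 fell without day 4 array 1. The hedgehog shares, 18.2% higher and 9.09% lower, lay near the 15% and 12.4% of all genes.

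Targets of p53 fell in 8 of 18 cases, rose in 2 and did not pass in 8 (median -0.32), with Plk2 at -1.56 ± 0.13 and Mdm2 not passed (-0.15). Targets of FoxO factors fell in 10 of 20, rose in 1 and did not pass in 9 (median -0.40). The FoxO rise was lost without day 4 array 1, day 4 array 3, day 0 array 1 or day 0 array 3. Bcl2l11, a trigger of cell death, measured 5.76, 5.61 and 5.43 at day 4, against 7.08, 6.85 and 7.28 at day 0 (-1.47 ± 0.12). Of 23 interferon and antigen presentation genes tested 6 fell, none rose and 17 did not pass (median -0.23), with Ifih1 at -0.92 ± 0.13. Of 23 cytokine genes tested 2 rose, 6 fell and 15 did not pass (median -0.03), and Nfkbiz and Socs3, both feedback regulators, fell by 2.29 ± 0.11 and 1.92 ± 0.21. Of 19 forebrain patterning genes 3 fell, none rose and 16 did not pass (median -0.08). The share that fell, 15.8%, lay near the 12.4% of all genes. The falls were those of Meis2 (-0.77), Pax6 (-0.72) and Nr2f1 (-0.38). The Nr2f1 call was lost without day 4 array 2 (-0.27, adjusted p = 0.0791 in limma) or day 0 array 3 (-0.32, adjusted p = 0.0591).

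The list of genes with the highest changes also held Slc39a12, a zinc transporter, and Tmem163, which binds zinc. Slc39a12 measured 8.62, 8.34 and 8.52 at day 4, against 5.62, 5.39 and 5.60 at day 0 (2.95 ± 0.13, adjusted p = 2.03e-10), and Tmem163 measured 9.79, 10.04 and 9.92 at day 4, against 6.81, 6.99 and 7.69 at day 0 (2.75 ± 0.22). Gpr149, an orphan receptor, rose by 2.76 ± 0.22, and Tubb4a, a tubulin of oligodendrocytes, by 3.14 ± 0.20.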
